A study of Mus musculus with 10 samples.

Results

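The genes described here encode the collagens, laminins and integrins of mpkCCD cells, an immortalized mouse line from the cortical collecting duct, a kidney tubule segment in which vasopressin controls water reabsorption. They were taken by gene symbol (collagen alpha chains, laminin alpha, beta and gamma chains, integrin alpha and beta subunits) when their mean over the 10 samples was at least 0.5 TPM (a transcript level scaled to gene length and to the total of the sample). Of the 80 such genes among the 55414 genes in the table, 30 passed, namely 11 of 44 collagens, 7 of 11 laminins and 12 of 25 integrins.

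Epithelial cells rest on a basement membrane, a thin sheet in which a network of laminins and a network of collagen IV are held together by linker proteins. Laminins are secreted as heterotrimers of an alpha, a beta and a gamma chain, and collagen IV as heterotrimers of alpha chains that fold into a triple helix. Integrins are heterodimers of an alpha and a beta subunit that span the plasma membrane, bind the matrix outside the cell and couple it to the cytoskeleton. In the kidney, mutations in Col4a3, Col4a4 or Col4a5 are the known cause of Alport syndrome, and mice without Itga3 form a disorganized glomerular basement membrane.

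The RNA-seq set comprised 10 samples of mpkCCD subclone c11-38, labelled as of the C57BL/6 strain, from a study of Camk2d, the gene of the delta form of calcium/calmodulin-dependent protein kinase 2. All samples, intact and KO, were grown on permeable membrane filters with 0.1 nM dDAVP, a vasopressin analogue, for 7 days, so no sample without dDAVP enters these comparisons. The intact group (n = 5) held 3 cell lines, namely the parental line with 1 sample and a pair of transfected clones without a mutation (intact clone 1 and intact clone 2) with 2 samples each. The KO group (n = 5) held 5 clones, each grown from a single sorted cell after CRISPR-Cas9 transfection and each sequenced once, and the study's table of mutations assigns KO 1 and KO 2 to a guide against exon 8 and KO 3, KO 4 and KO 5 to a guide against exon 9. The labels name no guide, so every exon 8 and exon 9 value below rests on matching the clone numbers of that table to those of the labels. Nothing in the labels says whether the paired samples of an intact clone were separate cultures, so p-values measure the spread between these samples, which may be technical in part.

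Because TPM are scaled to a fixed total, they carry no read depth, and no detection limit is given. Camk2d, the targeted gene, lay at 123 to 141 TPM in the intact samples and at 19.8 to 29.8 TPM in the KO samples. Its log2 ratio of KO to intact was -2.39 (SE 0.09, limma with Benjamini-Hochberg adjustment and an adjusted p of 1.2e-06), and the groups did not overlap. The epithelial identity of the line was checked with 13 collecting duct markers. Their summed level was 13690 to 15176 TPM in intact and 10624 to 13704 TPM in KO samples. Much of it was Aqp2 and the keratins Krt18 (5162 to 5754 TPM) and Krt8 (1585 to 1943 TPM). Scnn1b was at most 0.39 TPM and Aqp3 at 1.1 to 3.34 TPM. Aqp4 was at 0.1 to 8.54 TPM in intact and 0.07 to 1.77 TPM in KO samples. Aqp2, the vasopressin-regulated water channel, was at 3773 to 5502 TPM in intact samples, at 1281 TPM in KO 1, at 1618 TPM in KO 2 and at 2856 to 3789 TPM in the other KO clones. Of the 9 fibroblast markers Lum and Col3a1 were listed at 0 in all samples, Vim did not exceed 0.02 TPM, and the sum was at most 0.61 TPM in intact and 0.69 TPM in KO samples. The 4 endothelial markers summed to at most 0.06 TPM. The 6 leukocyte markers summed to 4.24 to 5.75 TPM in intact and 3.65 to 9.42 TPM in KO samples, nearly all of it Cd68, a lysosomal protein, with Adgre1 at 0.

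Col4a1 and Col4a2 encode the chains of the collagen IV trimer found in nearly all basement membranes. RefSeq places them next to each other on chromosome 8 in opposite orientation, and their annotated starts lie 21 bases apart. The 2 promoter windows below (GRCm38.p6, 250 bases before to 50 bases after each annotated start) are shown because these neighbouring genes share this start region and because their levels moved together over the cell lines. The Col4a1 window is chr8:11312777-11313076 on the minus strand and the Col4a2 window chr8:11312555-11312854 on the plus strand, so that they overlap by 78 bases. Capitals mark GGGCGG and CCAAT on either strand, the letters of a GC box and of a CCAAT box.
Col4a1: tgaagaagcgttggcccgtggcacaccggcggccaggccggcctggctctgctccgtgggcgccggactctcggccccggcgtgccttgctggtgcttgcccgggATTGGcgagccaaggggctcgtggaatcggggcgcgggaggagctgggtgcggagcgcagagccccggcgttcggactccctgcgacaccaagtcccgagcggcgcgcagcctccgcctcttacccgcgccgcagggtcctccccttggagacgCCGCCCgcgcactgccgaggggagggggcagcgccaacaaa
Col4a2: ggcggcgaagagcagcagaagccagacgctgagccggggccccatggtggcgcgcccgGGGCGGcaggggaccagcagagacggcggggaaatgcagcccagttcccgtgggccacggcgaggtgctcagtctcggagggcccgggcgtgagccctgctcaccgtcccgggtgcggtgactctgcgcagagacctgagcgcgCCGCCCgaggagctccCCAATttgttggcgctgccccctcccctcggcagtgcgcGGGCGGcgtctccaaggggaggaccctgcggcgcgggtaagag

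The windows are rich in G and C, at 74% of the bases for Col4a1 and 73.7% for Col4a2. The Col4a1 window held 1 GGGCGG and 1 CCAAT, the Col4a2 window 3 GGGCGG and 1 CCAAT, and neither held TATAAA or the AP-1 letters TGANTCA. The GGGCGG of Col4a1 lies in the overlap and is also 1 of the 3 in the Col4a2 window, so it counts in both. Promoter windows in the RefSeq table were found by symbol for 22 of the 30 genes, which have 26 windows. GGGCGG was present in 65.4% of these windows and in 35.7% of all 32851 windows in the table. CCAAT was present in 23.1% against 37.4%, TATAAA in 3.85% against 13.6%, and TGANTCA in 3.85% against 7.81%. Both strands were searched, and none of these motifs contains another. These are matches of letters in the windows only.

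Col4a1 was at 19.6 TPM in the parental line, 30.1 and 24.9 TPM in intact clone 1, 13.8 and 12 TPM in intact clone 2, and 13.9, 23.1, 13.3, 26.3 and 20.7 TPM in KO 1 to KO 5. Intact clone 1 was the highest line and intact clone 2 the lowest, and all KO clones lay between the extremes of the intact samples. Col4a2 followed the same order at the ends, with 10.3 TPM in the parental line, 13.5 and 12.3 TPM in intact clone 1, 6.96 and 6.64 TPM in intact clone 2, and 9.38, 10.8, 8.39, 11.2 and 9.15 TPM in KO 1 to KO 5. Over the 8 cell lines, 1 value each, the log2 levels of Col4a1 and Col4a2 gave a Pearson r of 0.88 and a Spearman rho of 0.93 (description, n = 8 lines, which share the parental origin). Without intact clone 2 and KO 3, the lines farthest from the median of Col4a1, r was 0.78 over 6 lines. The Col4a1 level was 1.48 to 2.34 times the Col4a2 level, with a median of 2 over the 10 samples.

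**Figure D1:**
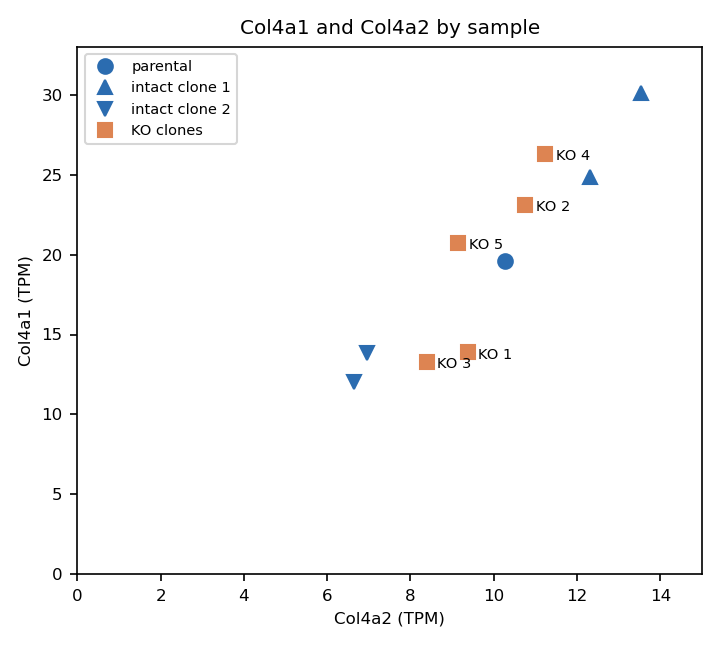
Levels of Col4a1 (vertical axis, TPM) against Col4a2 (horizontal axis, TPM), 1 point per sample, both axes linear from 0. The lowest point is a sample of intact clone 2 (12 TPM of Col4a1) and the highest a sample of intact clone 1 (30.1 TPM), and the KO clones lie between them, with KO 3 (13.3 TPM) under the other sample of intact clone 2 (13.8 TPM) and KO 4 (26.3 TPM) above the other sample of intact clone 1 (24.9 TPM).

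The mean Col4a1 level was 27.5 TPM in intact clone 1 and 12.9 TPM in intact clone 2, a log2 ratio of -1.03 (SE 0.14, 95% CI -1.46 to -0.60). That of Col4a2 was 12.9 and 6.8 TPM, a log2 ratio of -0.83 (SE 0.08, 95% CI -1.08 to -0.59). Neither passed limma's test with Benjamini-Hochberg adjustment over 20000 genes (adjusted p = 0.128 for Col4a1 and 0.0984 for Col4a2). Col4a2 passed when only genes with a mean of at least 1 TPM were tested (adjusted p = 0.0475). This contrast rests on 2 samples against 2 and called 5 genes in all, 0.025% of the genes tested. At an unadjusted p under 0.05 it held 11 of the 30 genes, 36.7%, against 17.1% of all genes tested. Without sample 2 of intact clone 1 it held 7 (23.3%, against 14.3%), and with each sample of an intact clone left out it held 7 to 10. In KO against intact samples the log2 ratio was -0.02 (SE 0.27, 95% CI -0.60 to 0.57) for Col4a1 and 0.02 (SE 0.19, 95% CI -0.39 to 0.43) for Col4a2, and the groups overlapped.

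Col4a3, Col4a4 and Col4a5 encode the chains of the second collagen IV trimer, that of the mature glomerular and of some tubular basement membranes. Col4a5 was the most abundant collagen IV chain in 9 of the 10 samples, the exception being intact clone 1 sample 1. It was at 26.9 to 33.7 TPM in intact samples and at 35.7, 43.2, 30.9, 36 and 31.1 TPM in KO 1 to KO 5. The ratio of Col4a5 to Col4a1 went from 0.892 in intact clone 1 sample 1 to 2.57 in KO 1. Col4a4 was at 4.97 TPM in the parental line, 5.24 and 4.36 TPM in intact clone 1, 6.93 and 6.82 TPM in intact clone 2, and 9.72, 6.87, 5.99, 8.34 and 6.45 TPM in KO 1 to KO 5. Col4a3 was lower, at 2.26 to 3.63 TPM in intact and 2.53 to 5.54 TPM in KO samples, and the Col4a4 level was 1.37 to 2.53 times that of Col4a3. Intact clone 2, the lowest line in Col4a1, had the higher mean of Col4a4 (6.88 against 4.8 TPM, log2 ratio 0.45, 95% CI 0.10 to 0.79) and of Col4a3 (3.28 against 2.3 TPM, log2 ratio 0.37, 95% CI 0.05 to 0.69), while that of Col4a5 was 28.7 against 27.8 TPM (95% CI of the log2 ratio -0.12 to 0.21). None of the 3 passed the adjusted test (limma, Benjamini-Hochberg, adjusted p = 0.225, 0.249 and 0.731). The remaining collagen IV gene, Col4a6, stands next to Col4a5 in RefSeq and did not exceed 0.07 TPM in any sample. The collagen IV chains together summed to 56.6 to 78 TPM in intact and 61.1 to 88.4 TPM in KO samples.

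Col18a1 was by far the most abundant collagen. It encodes a basement membrane collagen that carries heparan sulfate chains and from whose end the fragment endostatin is released. It was at 290 TPM in the parental line, 272 and 265 TPM in intact clone 1, 219 and 235 TPM in intact clone 2, and 329, 292, 287, 297 and 264 TPM in KO 1 to KO 5. Intact clone 2 was the lowest line, and the KO samples overlapped with the parental line and intact clone 1. The other collagens were near the lower end. Col8a1 and Col8a2, short-chain collagens that form hexagonal networks, were at 1.17 to 2.89 TPM and 0.35 to 3.11 TPM over the 10 samples. Col27a1 and Col11a2, fibrillar collagens, were at 0.32 to 1.86 TPM and 0.31 to 2.35 TPM, and Col20a1 was at 0.48 to 0.95 TPM. The genes just inside the threshold were Itgb3 with a mean of 0.575 TPM and Col20a1 with 0.695 TPM, and those just outside were Col26a1 with 0.374 TPM and Itga10 with 0.345 TPM. Of the 50 genes below it, 15 were listed at 0 in all samples, among them Col1a2, Col3a1, Lama1, Lama4 and Itga4.

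**Figure D2:**
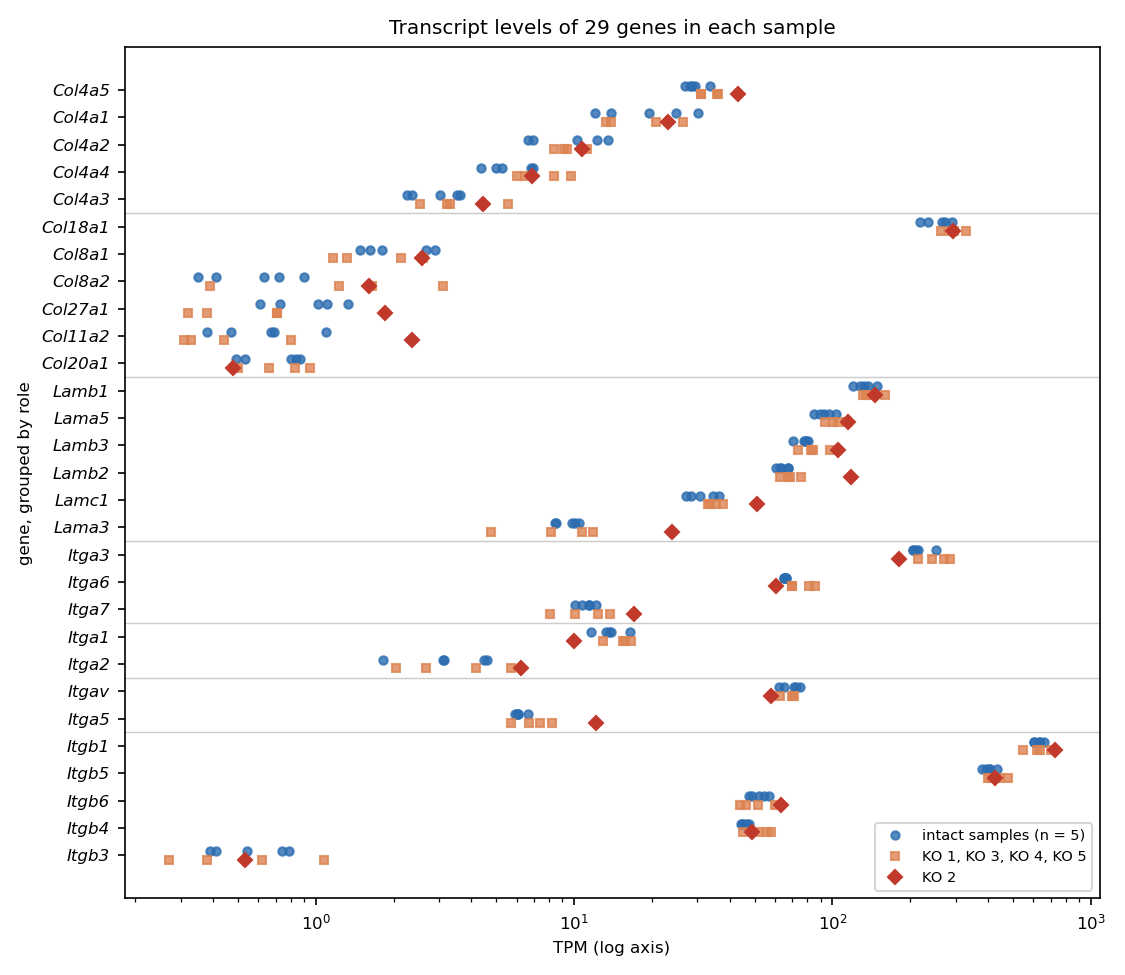
TPM of 29 of the genes (log axis), 1 point per sample: circles intact samples, squares KO 1, KO 3, KO 4 and KO 5, diamonds KO 2. Genes are grouped by role, from collagen IV at the top to the integrin beta subunits at the bottom, and levels run from 0.27 TPM (Itgb3, KO 3) to 729 TPM (Itgb1, KO 2).

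Lama5, Lamb1, Lamb2 and Lamc1 encode the chains of the laminins of mature tubular basement membrane. Lama3 and Lamb3 encode chains of the laminin that anchors epithelia through hemidesmosomes. Mean levels over the 10 samples were 138 TPM for Lamb1, 99.6 TPM for Lama5, 82.8 TPM for Lamb3, 71.4 TPM for Lamb2, 34.8 TPM for Lamc1 and 10.7 TPM for Lama3. The chains of one trimer were thus not present at one level. Lamb3 was 7.45 to 9.35 times Lama3 in intact samples, 20.5 times in KO 1 and 4.39 times in KO 2. The level of 1 chain relative to another is one of transcripts and not of assembled trimers.

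KO 2 was the highest sample in several laminin chains. Lama3 was at 8.43 to 10.5 TPM in the intact samples and at 4.75, 23.9, 8.15, 10.8 and 11.8 TPM in KO 1 to KO 5. KO 1 was the lowest of the 10 samples and KO 2 the highest, at 2.69 times the mean of the other KO clones, and the highest was 5.03 times the lowest. Lamb2 was at 60.3 to 67.5 TPM in the intact samples and at 75.9, 118, 68.8, 62.6 and 67.2 TPM in KO 1 to KO 5. Lamc1 was at 27.2 to 36.5 TPM in the intact samples and at 37.6, 51.1, 33.5, 35.5 and 33.1 TPM in KO 1 to KO 5. In both genes KO 2 was highest and the other 4 KO clones lay in or above the intact range. Lamb3 was at 70.2 to 80.2 TPM in the intact samples and at 97.5, 105, 73.3, 84.3 and 82.9 TPM in KO 1 to KO 5. Lama5 was at 85.2 to 103 TPM in the intact samples and at 105, 115, 100, 114 and 93.7 TPM in KO 1 to KO 5. KO 1 and KO 2 were highest in Lamb3, KO 2 and KO 4 in Lama5. Lamb1 was the exception, at 149 TPM in the parental line, 120 to 137 TPM in the intact clones and 160, 146, 131, 144 and 135 TPM in KO 1 to KO 5, with KO 1 highest. These 6 chains summed to 378 to 443 TPM in intact samples, to 559 TPM in KO 2 and to 415 to 481 TPM in the other KO clones.

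**Figure D3:**
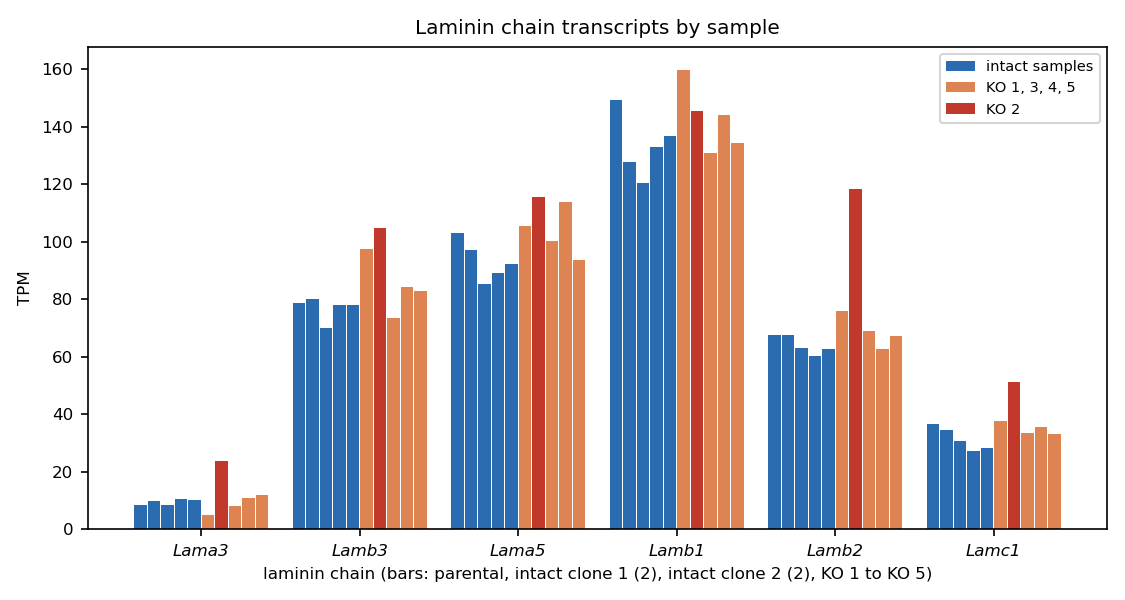
TPM of 6 laminin chains (linear axis from 0), 1 bar per sample in the order parental line, intact clone 1 (2 bars), intact clone 2 (2 bars), KO 1 to KO 5. KO 2 has the tallest bar in 5 chains, with 118 TPM of Lamb2 and 23.9 TPM of Lama3, and KO 1 in Lamb1.

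Whether the KO clones differed from one another was tested in a fit with 1 coefficient per cell line. Its spread comes from the paired samples of the 2 intact clones alone (2 residual degrees of freedom before moderation), and it assumes that a KO clone would vary as these do. Of the 30 genes, 2 passed limma's moderated F test among the 5 KO clones with Benjamini-Hochberg adjustment, among them Itga6 (F = 91.4, adjusted p = 0.0438). In all, 981 of 20000 genes passed, 4.91%. Of these 981 genes, 377 were at 0 in all 4 intact clone samples, the only source of the spread. Of the 14457 genes with a mean of at least 0.5 TPM, 674 passed, 4.66%. An unadjusted p under 0.05 was found in 19 of the 30 genes, 63.3%, against 28.8% of all genes tested, and without KO 2 in 11 of the 30 genes, 36.7%, against 20% of all genes tested. Next in order were Col8a2, Lama3, Itga3 and Lamb2 (limma F test, adjusted p = 0.0514, 0.0517, 0.0583 and 0.0587). Without KO 2 none of the 30 genes passed, and the adjusted p was 0.0909 for Itga6. Without KO 1 it was 0.0619 for Itga6. Itga6 also missed the threshold in limma without a trend (adjusted p = 0.0838).

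Among the 10 samples KO 2 held the highest value of 14 of the 30 genes, 46.7%, against 28.3% of the 14457 genes with a mean of at least 0.5 TPM. These 14 included the laminin chains Lama3, Lama5, Lamb2, Lamb3 and Lamc1, as well as Itgb1, Itgb6, Itga7, Itga5, Itga2, Col4a5, Col27a1 and Col11a2. KO 2 also held the lowest value of 5 of the 30 genes, against 16.9% of these 14457 genes, namely Itga3, Itga6, Itgav, Itga1 and Col20a1. Of the laminin-binding integrin subunits, Itga3 and Itga6 were thus lowest and Itga7 highest in KO 2. KO 1 held the highest value of 6 of the 30 genes, 20%, against 16.8% of these 14457 genes, namely Col18a1, Itga3, Lamb1, Itga6, Col4a4 and Col4a3. KO 2 stood apart in other genes too. Among the collecting duct markers Avpr2, the vasopressin receptor, was at 114 TPM in KO 2 and at 192 to 264 TPM in the other 9 samples, and Aqp2 was low in KO 1 and KO 2 as given above. The part of these differences in the laminin values was not tested.

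**Figure D4:**
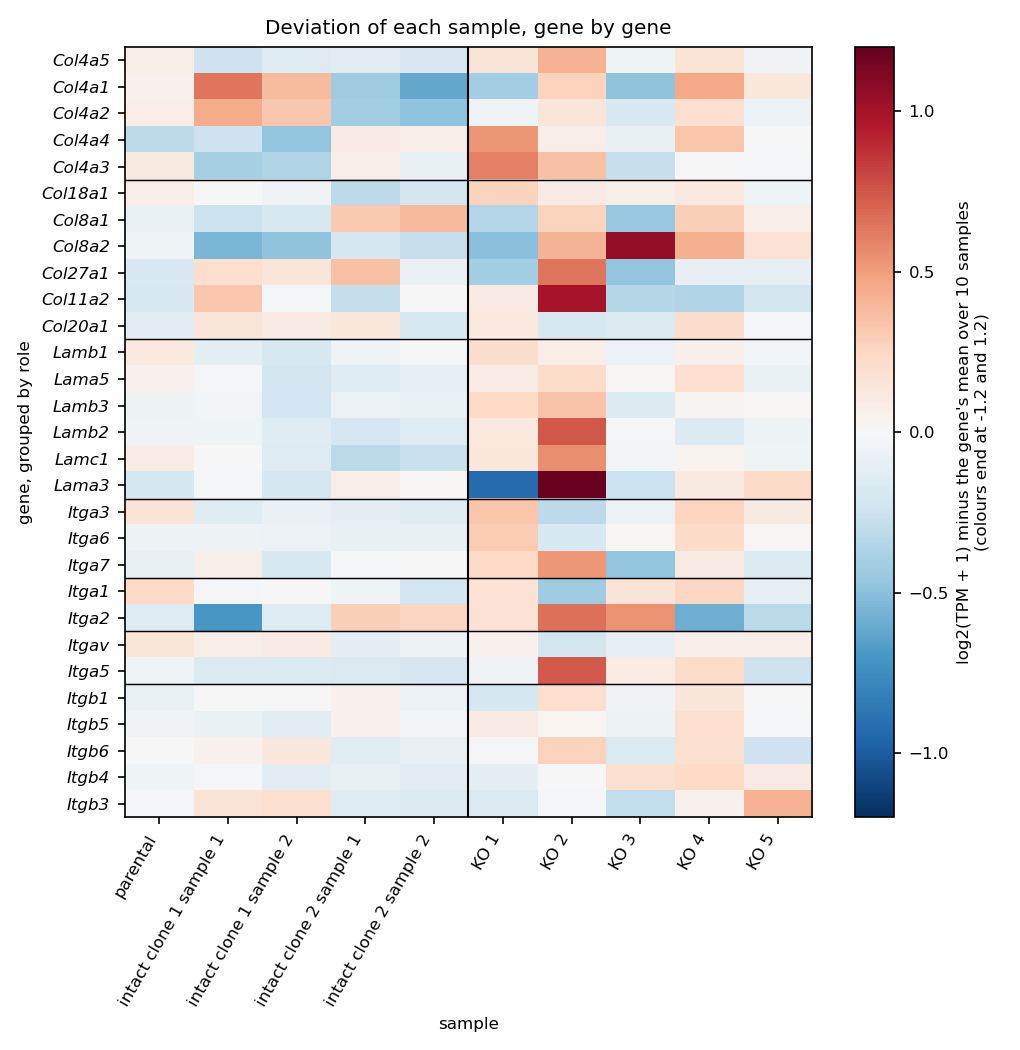
Colour scale of log2(TPM + 1) of each gene (rows, grouped by role) in each sample (columns) minus the gene's mean over the 10 samples, red above and blue below, with intact samples left and KO samples right of the vertical line. In the KO 2 column Lama3 (23.9 TPM) is the reddest field, and Lama3 in KO 1 (4.75 TPM) is the bluest field.

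The 2 most abundant of the 30 genes encode integrin beta subunits. Itgb1, the partner of many alpha subunits and the common chain of laminin and collagen receptors, had a mean of 637 TPM. It was at 602 to 659 TPM in the intact samples and at 548, 729, 618, 703 and 639 TPM in KO 1 to KO 5. Itgb5, which pairs with Itgav, was at 378 to 432 TPM in the intact samples and at 447, 425, 401, 480 and 409 TPM in KO 1 to KO 5. KO samples lay on both sides of the intact range in Itgb1, and in or above it in Itgb5. Itgb6, an epithelial partner of Itgav that binds latent TGF-beta, was at 47.4 to 56.9 TPM in intact and 43.8 to 63.4 TPM in KO samples. Itgb4, which pairs with Itga6 in hemidesmosomes, was at 46.8 TPM in the parental line, 47.8 and 44.4 TPM in intact clone 1, 45.6 and 44.6 TPM in intact clone 2, and 45.1, 48.7, 55.9, 57.7 and 52.1 TPM in KO 1 to KO 5. The 3 exon 9 KO clones were higher than every other sample in Itgb4.

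Itga3 was the most abundant alpha subunit. With Itgb1 it forms a laminin receptor. It was at 251 TPM in the parental line, 205 to 215 TPM in the 4 intact clone samples, and 286, 182, 215, 271 and 244 TPM in KO 1 to KO 5. Itga6, the alpha subunit of a further laminin receptor, was nearly the same in all intact samples, 65.1 to 66.1 TPM with an SD of 0.471 TPM, and was at 85.4, 60.7, 69.7, 81 and 70 TPM in KO 1 to KO 5. For both genes KO 1 was highest and KO 2 lowest of the 10 samples, and 4 of the 5 KO clones were above every intact sample in Itga6. The small intact spread of Itga6 enters the F test above. The level of Itga6 was 1.25 to 1.89 times that of Itgb4, its hemidesmosome partner. Itga7, also a laminin-binding subunit, was at 10 to 12.1 TPM in intact samples and at 13.8, 17, 8.09, 12.4 and 10.1 TPM in KO 1 to KO 5.

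The alpha subunits that bind the RGD sequence of fibronectin and related proteins were Itgav and Itga5. Itgav was at 74.7 TPM in the parental line, 71.1 and 72.4 TPM in intact clone 1, 62 and 64.7 TPM in intact clone 2, and 70, 57.8, 62.9, 70.3 and 70.9 TPM in KO 1 to KO 5. Itga5 was at 5.89 to 6.66 TPM in the intact samples and at 6.67, 12.2, 7.41, 8.2 and 5.68 TPM in KO 1 to KO 5, with KO 2 highest. The collagen-binding subunits were lower, with Itga1 at 11.7 to 16.5 TPM in intact and 10 to 16.7 TPM in KO samples and Itga2 at 1.82 to 4.61 and 2.05 to 6.25 TPM. The level of Itgb5 was 5.23 to 7.35 times that of Itgav. Summed alpha subunits came to 345 to 482 TPM and summed beta subunits to 1092 to 1301 TPM over the 10 samples. For 3 other pairs of partners the correlation over the 8 cell lines was lower than for Col4a1 and Col4a2 (descriptions, n = 8). Pearson r was 0.34 for Lama3 and Lamb3, 0.26 for Itga6 and Itgb4, and -0.22 for Itgav and Itgb6. Without KO 2, r was -0.57 for Lama3 and Lamb3 and 0.43 for Itgav and Itgb6, and without KO 1 and KO 2 it was 0.80 for Lama3 and Lamb3. Without KO 1 and KO 4 it was 0.59 for Itga6 and Itgb4.

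The comparison of KO with intact samples addresses what loss of Camk2d does to the transcripts. None of the 30 genes passed limma's test with Benjamini-Hochberg adjustment, where the smallest adjusted p among them was 0.651. Camk2d was the 1 gene of 20000 that passed, 0.005%. The study's own edgeR test on expected counts called further transcripts, gasdermin genes among them. In none of the 30 genes were KO and intact samples without overlap, against 1.64% of all genes tested, 1.2% with KO higher. At an unadjusted p under 0.05 stood 6 of the 30 genes, 20%, against 6.99% of all genes tested, each with the higher mean in KO. This count depended on which samples were included and on the fit. It was 1 of the 30 genes (3.33%) without KO 4, against 7.05% of all genes tested, and 2 (6.67%) without sample 2 of intact clone 1, against 5.47%. It was 3 (10%) with median ratio scaling, against 6.44%, and ranged from 1 to 8 with each sample left out. With 1 value per cell line it was 0 of the 30 genes, against 3.81% of all genes tested. With cell line as a random effect it was 3 (10%), against 3.74%.

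Those 6 genes were a hemidesmosome integrin subunit, 2 collagen IV chains, a laminin chain and 2 other collagens. Itgb4 was at 45.8 ± 1.45 TPM in intact and 51.9 ± 5.13 TPM in KO samples (SD, n = 5 each), a log2 ratio of 0.17 (95% CI 0.03 to 0.32). Col4a5 was at 29.3 ± 2.63 and 35.4 ± 4.99 TPM, a log2 ratio of 0.26 (95% CI 0.05 to 0.47). Lama5, whose values stand above, had a log2 ratio of 0.18 (95% CI 0.02 to 0.33). Col18a1 was at 256 ± 28.6 and 294 ± 23.4 TPM, a log2 ratio of 0.20 (95% CI 0.02 to 0.38). Col4a4 was at 5.66 ± 1.15 and 7.47 ± 1.53 TPM, a log2 ratio of 0.35 (95% CI 0.01 to 0.69). Col8a2 had the largest ratio, with 0.9, 0.35, 0.41, 0.72 and 0.63 TPM in the intact samples and 0.39, 1.61, 3.11, 1.65 and 1.23 TPM in KO 1 to KO 5. Its log2 ratio was 0.62 (95% CI 0.09 to 1.16) on the log2(TPM + 1) scale, which understates changes at such low levels, and 1.41 as the log2 ratio of the means. In 4 of the 5 KO clones Col8a2 was above every intact sample, and in KO 1 it was within the intact range. Two-sided exact permutation tests over all arrangements of the 10 samples gave p = 0.0397 for Itgb4 and Col4a5, 0.0476 for Col8a2, 0.0556 for Lama5 and 0.0714 for Col18a1 and Col4a4, where the smallest possible p is 0.00794. These p-values are not adjusted for the number of genes. They treat the 2 samples of an intact clone as independent, although 4 of the 5 intact samples come from 2 cell lines.

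**Figure D5:**
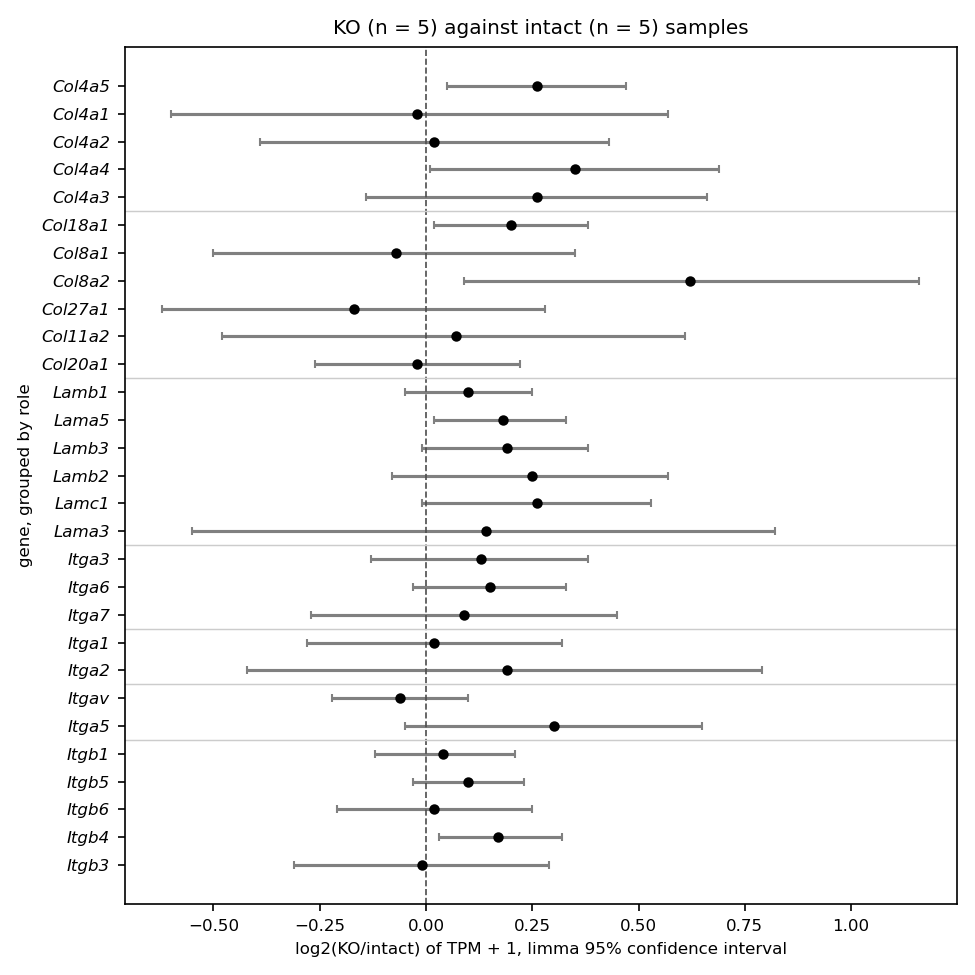
Log2 ratio of KO (n = 5) to intact (n = 5) samples for each gene on the log2(TPM + 1) scale (points) with limma's 95% confidence interval (bars, not adjusted for the number of genes), grouped by role, and a dashed line at 0. All 6 laminin chains drawn lie between 0.10 and 0.26, and the widest intervals are those of Lama3 (-0.55 to 0.82), Itga2 (-0.42 to 0.79) and Col4a1 (-0.60 to 0.57).

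By role, the median log2 ratio of KO to intact was 0.26 for the 5 collagen IV chains, 0.02 for the 6 other collagens, 0.19 for the 7 laminin chains and 0.09 for the 12 integrins, against 0.02 for all genes tested. The laminin median was 0.39 with the exon 8 KO clones alone and 0.06 with the exon 9 KO clones alone, and that of all 30 genes was 0.20 and 0.05. The ratio was above 0 in 24 of the 30 genes, 80%, against 57.3% of all genes tested and 59.1% of those with a mean of at least 0.5 TPM. Genes are not independent replicates, and KO 2 contributes to these counts. Without KO 2, 19 of the 30 genes (63.3%) were above 0, against 53.7% of all genes tested, and the median was 0.09 for the laminin chains, of which Lama3 stood at -0.14. Summed over the 6 laminin chains described above the level was 409 ± 24.1 TPM in intact and 466 ± 58.2 TPM in KO samples, and over all 30 genes 2341 ± 67.1 and 2554 ± 166 TPM (SD, n = 5 each). For the abundant subunits the intervals were narrow, although they too treat the 2 samples of an intact clone as independent. The 95% CI of the ratio of KO to intact was 0.918 to 1.15 for Itgb1, 0.98 to 1.17 for Itgb5, 0.966 to 1.19 for Lamb1, 0.861 to 1.08 for Itgav and 0.913 to 1.31 for Itga3. That of Lama3 was wider, at 0.683 to 1.77.

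The KO clones of the 2 guides were also compared with each other. None of the 30 genes passed limma's test with Benjamini-Hochberg adjustment, where 62 of 20000 genes, 0.31%, did. At an unadjusted p under 0.05 stood 9 of the 30 genes, 30%, against 12.1% of all genes tested, 8 of them lower in the exon 9 KO clones. The count and its direction changed when single clones were left out. Without KO 2 there were 8 such genes, 4 higher and 4 lower, against 15.8% of all genes tested. Without KO 1 there were 14 (against 23.3%) and without KO 3 there were 6 (against 9.41%). Lamb3 had the smallest p. Its mean was 101 TPM in the 2 exon 8 KO clones and 80.2 TPM in the 3 exon 9 KO clones, a log2 ratio of -0.33 (95% CI -0.51 to -0.16, limma adjusted p = 0.149). The laminin chains Lamb2 (log2 ratio -0.51) and Lamc1 (-0.36) and the genes Itga7 (-0.56), Col4a3 (-0.58), Col4a5 (-0.26) and Col11a2 (-0.85) also had lower means in the exon 9 KO clones, and Itgb4 (0.23) was higher. Without KO 2 the log2 ratio was -0.20 for Lamb2, -0.14 for Lamc1, -0.13 for Col4a5 and -0.41 for Col11a2, and without KO 1 it was -0.83, -0.57, -0.39 and -1.30. The exon 8 group has 2 clones, and these differed strongly from each other. Lama3 was at 4.75 TPM in KO 1 and 23.9 TPM in KO 2, and its interval for the guides was wide (log2 ratio -0.10, 95% CI -1.15 to 0.95). With either of them left out the exon 8 arm is 1 sample, which is assumed to vary like the other groups. Without KO 1, 6 of the 30 genes and 1732 of all genes passed, and without KO 2 it was 1 of the 30 genes (Lama3) and 634 of all genes. Guide and clone cannot be told apart in a group of 2.

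The genes that make, link, cut and bind this matrix were counted from 6 lists. In KO against intact samples 0 of the 108 listed genes that were tested passed limma's adjusted test. At an unadjusted p under 0.05 stood 1 of 12 basement membrane partners, 0 of 22 genes of collagen biosynthesis and crosslinking, 0 of 17 of matrix turnover, 5 of 31 integrin adhesion adaptors, 1 of 16 fibronectin and matricellular genes and 0 of 10 non-integrin matrix receptors, in all 7 of 108, 6.48%, against 6.99% of all genes tested. Their median log2 ratios were 0.03, 0.08, -0.02, 0.08, 0.01 and 0.12. The highest ratios were those of Gpc4, a glypican, and Ltbp1, which tethers latent TGF-beta to the matrix. Gpc4 was at 5.57 TPM in the parental line, 0.19 to 0.67 TPM in the intact clones and 11.2, 13.3, 0.1, 4.97 and 2.49 TPM in KO 1 to KO 5 (limma with Benjamini-Hochberg adjustment, adjusted p = 0.739). Ltbp1 was at 2.31 to 3.29 TPM in intact samples and at 12.2 TPM in KO 2 and 8.64 TPM in KO 4, with 2.52 to 3.12 TPM in the other KO clones (log2 ratio 0.63). The lowest ratios were those of Timp3, an inhibitor of matrix metalloproteinases (33 to 45.1 TPM in intact and 7.4 to 62.9 TPM in KO samples, log2 ratio -0.60), and Lims2, an adaptor of the integrin-linked kinase complex (log2 ratio -0.44, limma with Benjamini-Hochberg adjustment, adjusted p = 0.862). The direction for Lims2 depends on the scale. Its mean TPM was higher in KO than in intact samples (9.67 against 8.81 TPM), with KO 1 at 31.8 TPM.

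Between the KO clones 11 of these 108 listed genes, 10.2%, passed limma's F test with Benjamini-Hochberg adjustment, against 4.91% of all genes tested. The highest F values were those of the adaptors Tln2, a talin that links integrins to actin (F = 477, adjusted p = 0.0134), and Lims2 (F = 378, adjusted p = 0.0171). Tln2 was at 14.6 to 16.6 TPM in the intact samples and at 4.88, 35, 13.5, 16.8 and 12.1 TPM in KO 1 to KO 5. Lims2 was at 8.36 to 9.66 TPM in the intact samples and at 31.8, 2.37, 5.2, 3.46 and 5.56 TPM in KO 1 to KO 5. KO 1 and KO 2 lay at opposite ends in both genes. Tln2, like Lama3, was lowest in KO 1 and highest in KO 2, and Lims2 the reverse. Ppib, a collagen prolyl isomerase of the endoplasmic reticulum, was at 297 to 316 TPM in the intact samples, 492 TPM in KO 2 and 294 to 307 TPM in the other KO clones. Cd44, a hyaluronan receptor, was at 3.82 to 6.16 TPM in the intact samples, 13.1 TPM in KO 2 and 2.17 to 6.91 TPM in the other KO clones. The others were Tns1, Gpc4, Adamts1, Timp3, P3h2, Spp1 and Fbln2.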

How the data were processed

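The authors made amplified full-length cDNA from total RNA, sequenced paired reads, aligned them to the mouse genome with STAR and quantified Ensembl genes with RSEM. The deposited values are TPM per Ensembl gene, 1 column per sample, and 0 sample columns were left unused. The authors tested RSEM expected counts with edgeR. Expected counts were not used here, and the groups were compared on TPM on a log scale.

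The genes were found by symbol and threshold, and the genes and lists were chosen with earlier results of these data known. The 20000 genes with the highest mean TPM (lowest 0.049), all 30 genes included, were compared as log2(TPM + 1) with limma 3.58.1 in R 4.3.3 (eBayes with trend), with Benjamini-Hochberg adjustment over all of them and a threshold of 0.05. Fits were KO against intact, exon 9 against exon 8 KO in 3 groups, and 1 coefficient per cell line. The 2 samples of an intact clone were not copies: Pearson r across genes was 0.989 for intact clone 1 and 0.991 for intact clone 2. The procedure was tested on simulated data with independent noise and no variation between cell lines. Such data cannot show how it behaves where clones differ. Of the 30 genes 1 is in the counts but is not reported here. Named with values are collagen IV and laminin chains, integrin subunits of at least 5 TPM, the 12 most abundant genes, genes passing a test or with an unadjusted p under 0.05 for KO, genes next to the threshold, and listed genes that passed or had the 2 largest ratios each way. Other values were chosen after being seen. Alternatives were other pseudocounts (0.1, 0.5), filters, scalings, moderation, 1 value per cell line, cell line as a random effect (statmod 1.5.0), each guide alone and leaving out samples. Leaving out samples of intact clones in the cell line fit and the ratio of mean TPM were chosen after seeing the data. Sums, motifs and plots used Python 3.11.15, pandas 2.3.3, numpy 2.4.6, scipy 1.17.1 and matplotlib 3.10.9. Of all 50-base windows of their transcripts, the 30 genes owned at least 92.7% (Itgb5), so few reads could be shared with other genes.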

Additional observations from a re-analysis of the deposited data

Results flagged for a closer look

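In each gene the intact and the KO group of 5 samples were checked for a sample far from the others, by its gap to the nearest sample as a share of the group's range (limit 0.71). Of 58 groups 7 passed the limit, 12.1%, against 9.41% of the groups of all genes with a mean of at least 0.5 TPM, where chance flags about 1 in 20. In 4 of the 29 KO groups, 13.8%, the sample was KO 2 as the highest, against 6% of all these genes. Genes are not independent of each other. Lamb2 was at 118 TPM in KO 2 and at 62.6 to 75.9 TPM in the other KO clones. Lamc1 was at 51.1 TPM against 33.1 to 37.6 TPM. Col11a2 was at 2.35 TPM against 0.31 to 0.8 TPM. Col27a1 was at 1.86 TPM against 0.32 to 0.71 TPM.

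In the intact group the parental line stood apart in 2 integrin subunits. Itga3 was at 251 TPM in the parental line and at 205 to 215 TPM in the intact clones, and Itga5 at 6.66 TPM against 5.89 to 6.08 TPM. Lamb3 was lowest in intact clone 1 sample 2, at 70.2 TPM against 77.8 to 80.2 TPM in the other intact samples.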

How the results depend on the processing

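No setting made any of the 30 genes pass in KO against intact. The number of all genes passing there (1) became 2 with a pseudocount of 0.1, 50 with the exon 8 KO clones alone and 1 to 2 with each sample left out. For exon 9 against exon 8 KO the 62 genes became 6 with 1 value per cell line, 36 with a random effect of cell line and 21 to 1732 with each sample left out, and the 0 of the 30 genes became 0 to 6. The upper ends come from leaving out KO 1, where the exon 8 arm is 1 sample assumed to vary like the other groups. Between the intact clones the 5 genes became 1 with a pseudocount of 0.1 or 0.5, 2 without a filter, 243 with a mean of at least 1 TPM (with 1 of the 30 genes, Col4a2), 11 without a trend, 191 with robust moderation and 0 with each sample left out. Among the KO clones the 981 genes became 3427 without a filter, 1538 with a mean of at least 1 TPM, 482 without a trend, 1659 with robust moderation and 434 to 1264 with each clone left out. The 2 of the 30 genes became 7, 7 and 5 without a filter, with a mean of at least 1 TPM and with robust moderation, and 0 to 6 with each clone left out.

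The sign of the KO to intact log2 ratio turned in 12 of the 30 genes under some setting. It was -0.01 for Itgb6 with median ratio scaling and with quantile normalization and -0.06 with the exon 9 KO clones alone. Itga1 was at -0.02 with quantile normalization and with 1 value per cell line and at -0.12 with the exon 8 KO clones alone. Col4a2 was at -0.01 with quantile normalization and with the exon 9 KO clones alone and at -0.02 as the ratio of mean TPM. With the exon 9 KO clones alone Col4a1 was at 0.03, Itga7 at -0.13, Itga2 at -0.03, Col11a2 at -0.28 and Itgb3 at 0.05. Itgb3 was at 0.01 as the ratio of mean TPM, and Col27a1 at 0.03 with the exon 8 KO clones alone. With each sample left out the ranges were -0.05 to 0.08 for Itgb6, -0.17 to 0.14 for Col4a1, -0.04 to 0.13 for Itga1, -0.03 to 0.22 for Itga7, -0.14 to 0.38 for Lama3, -0.10 to 0.14 for Col4a2, -0.17 to 0.16 for Col11a2, -0.08 to 0.02 for Col20a1, -0.15 to 0.03 for Col8a1 and -0.12 to 0.06 for Itgb3. The cause was not tested. Of the 30 genes, 26 have a mean of at least 1 TPM. The median log2 ratio of all genes was 0.02 as deposited and 0.00 with median ratio scaling, where 21 of the 30 genes (70%) were above 0, against 50.2% of all genes tested. No paired analysis was possible because the clone numbers in the labels name separate cell lines and do not pair intact with KO samples. Depth is unknown from TPM, which limits what can be said of genes under 1 TPM.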

Other observations

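Some collagens and integrins under the threshold were high in 1 sample. These genes were chosen after their values were seen. Col26a1 was at 2.11 TPM in KO 2 and at 0.08 to 0.34 TPM in the other 9 samples. Itgae, an integrin alpha subunit that binds E-cadherin, was at 0.92 TPM in KO 3 and at 0.05 to 0.3 TPM in the others. Itgb2, the beta subunit of leukocyte integrins, was at 0.29 to 0.36 TPM in the intact samples, at 0.64 TPM in KO 2 and at 0.03 to 0.11 TPM in the other KO clones. Its partners Itgal and Itgam did not exceed 0.03 TPM in any sample, and Ptprc, a leukocyte marker, was at 0.06 to 0.62 TPM.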
